A study of Homo sapiens with 4 samples.

Results

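The inflammatory cytokine and NF-κB feedback genes examined here were TNF, IL1A, IL1B, IL6, NFKBIA, NFKBIE, TNFAIP3, NFKB1, NFKB2 and RELB. They were chosen by name, as every gene probe of the array that carries one of these 10 symbols, which gave 11 probes of 58185 and 10 gene names of 43311, with IL6 on 2 probes. RNA came from MDS-L cells, a human line established from a patient with myelodysplastic syndrome, and from MDS-L/CDA cells, a line described in the methods as resistant to 5-azacytidine (AZA) and made from MDS-L by transducing CDA, the gene of a deaminase that acts on cytidine. AZA is a cytidine analog that traps DNA methyltransferase on DNA and lowers DNA methylation. Cells of each line were kept for 72 h with AZA at 1 μM or with the vehicle alone, DMSO at 0.1%, in medium that held IL-3 in all 4 conditions, and each condition was hybridized to 1 one-colour array. The promoter that drives CDA and whether MDS-L/CDA is a single clone were not given in the sources used here. The treatment field of the labels named the opposite treatment for the MDS-L AZA and the MDS-L/CDA vehicle samples, and the groups follow the title, source name and description, which name the same treatment. With 1 array per condition no test was possible, and every comparison below is between single arrays.

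NF-κB is a family of dimeric transcription factors held in the cytoplasm by IκB proteins and released when receptors for TNF, interleukin-1 or microbial products activate the IκB kinases. TNF, interleukin-1 and interleukin-6 are both products of NF-κB activity and signals to neighbouring cells, while NFKBIA, NFKBIE and TNFAIP3 are induced by NF-κB and switch it off again. In myeloid cells the pathway is best known for the response to infection and for survival signals.

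The promoters are shown because AZA acts on CpG methylation and because the feedback genes are targets of NF-κB. The RefSeq promoter table (GRCh38.p14) held 12 windows for 8 of the 10 genes, and NFKBIE and RELB had no entry. Each printed window is the 250 bases before the annotated start, 5′ to 3′ on the strand of the gene. The TNF window lies at chr6:31575315-31575564 on the + strand and the IL1B window at chr2:112836780-112837029 on the - strand, and both are given with each CpG in capitals.
TNF: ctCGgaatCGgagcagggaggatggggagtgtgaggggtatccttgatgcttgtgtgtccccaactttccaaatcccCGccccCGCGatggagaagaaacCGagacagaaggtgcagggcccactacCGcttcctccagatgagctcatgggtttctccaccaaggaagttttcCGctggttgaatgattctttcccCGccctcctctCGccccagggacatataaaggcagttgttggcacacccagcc
IL1B: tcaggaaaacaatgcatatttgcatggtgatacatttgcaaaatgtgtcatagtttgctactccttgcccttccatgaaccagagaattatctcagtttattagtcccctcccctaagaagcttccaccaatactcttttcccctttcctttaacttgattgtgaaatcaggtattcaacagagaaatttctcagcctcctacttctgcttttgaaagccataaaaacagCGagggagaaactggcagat
The TNF window held 10 CpG and the IL1B window 1. Over 35116 promoter windows of the same length the quartiles were 3, 11 and 23 CpG, so that 47.8% of windows had fewer than TNF and 6.06% had fewer than IL1B. The NFKBIA window lies at chr14:35404750-35404999 on the - strand and the TNFAIP3 window at chr6:137867009-137867258 on the + strand, and both are given with the letters that match the kappaB motif in capitals.
NFKBIA: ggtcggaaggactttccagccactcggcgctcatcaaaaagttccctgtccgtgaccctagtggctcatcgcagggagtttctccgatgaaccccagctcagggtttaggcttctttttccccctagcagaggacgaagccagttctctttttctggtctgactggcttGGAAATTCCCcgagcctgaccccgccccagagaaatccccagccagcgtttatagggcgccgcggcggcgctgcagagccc
TNFAIP3: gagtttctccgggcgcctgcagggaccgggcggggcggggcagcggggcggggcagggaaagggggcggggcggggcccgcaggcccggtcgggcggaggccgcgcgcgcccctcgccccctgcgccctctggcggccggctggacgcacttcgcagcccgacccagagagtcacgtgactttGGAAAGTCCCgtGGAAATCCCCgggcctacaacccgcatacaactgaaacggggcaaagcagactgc
The motif, GGGRNNYYCC (R is A or G, Y is C or T, N is any base), was searched on both strands, and 9.96% of all windows held a match. On the strand opposite to the gene, the NFKBIA window read GGGAATTTCC at bases 81 to 72 before the start, and the TNFAIP3 window read GGGACTTTCC at bases 67 to 58 and GGGGATTTCC at bases 55 to 46. IL6, NFKB1 and NFKB2 each had a match in at least 1 window, so 5 of the 8 genes held one. A gene with several windows had more places for a match, while 9.96% is a share of single windows. The windows of TNF, IL1A and IL1B did not hold a match. The NFKBIA window had 15 CpG and the TNFAIP3 window 29. A match is a description of the letters, and neither methylation nor binding of a factor was measured on these arrays.

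Levels are given as the background-subtracted scanner signal divided by the 75th percentile of its own array, which was 52.5 and 52.9 for MDS-L vehicle and MDS-L AZA and 40.8 and 37.3 for MDS-L/CDA vehicle and MDS-L/CDA AZA. Between 32.6% and 36.5% of probes were well above background, no spot was saturated, and the lowest scaled signal well above background was 0.19 on both MDS-L arrays and 0.272 and 0.296 on the MDS-L/CDA arrays. Among the 263 or 264 probes printed as 10 spots and well above background on both arrays, the SD of a log2 ratio between single spots was 0.279 for AZA against vehicle in MDS-L cells, 0.376 in MDS-L/CDA cells, and 0.299 and 0.361 for the lines against each other with vehicle and with AZA. Among the 7 and 10 such probes with a mean signal under 100, the SD for AZA against vehicle was larger, 0.322 in MDS-L and 0.531 in MDS-L/CDA cells, and NFKB2 in both lines and TNF in the MDS-L/CDA line were this dim. Multiples of the spot SD below use the SD over all such probes. This spread is technical and holds no variation between cultures. Of the progenitor markers 5 of 6 were well above background on all arrays, CD34, CD33, KIT, GATA2 and IL3RA, and MPO was on none. CDA itself had scaled signals of 0.0943 to 0.146, with no array flagged as well above background. Whether its probe lies in the introduced CDA sequence is not given in the sources used here, so it does not check the line.

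Of the 10 genes, 8 were well above background on all 4 arrays, and IL1A and both IL6 probes were on none. IL1A, which encodes interleukin-1α, had scaled signals of 0.0419 and 0.0421 on the MDS-L vehicle and AZA arrays and 0.0578 and 0.0583 on the MDS-L/CDA vehicle and AZA arrays. For IL6, which encodes interleukin-6, scaled signals lay between 0.0401 and 0.137 over both probes and all arrays. No fold is given for these genes, and a level under the lowest signal well above background was not detectable here.

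**Figure D1:**
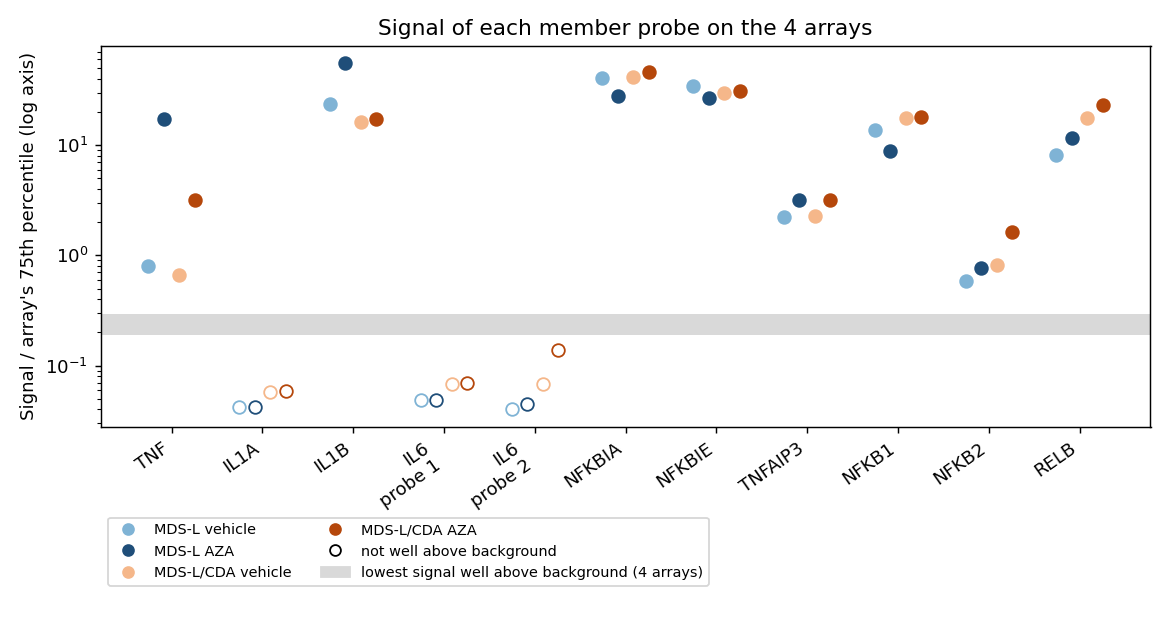
Signal of the 11 probes on the 4 arrays, as multiples of the 75th percentile of each array, on a log axis. Each point is 1 array (the mean of 10 spots for NFKBIA), open points were not well above background, and the grey band spans the lowest signals well above background, 0.19 to 0.296. TNF was raised on both AZA arrays, IL1B on the MDS-L AZA array, and IL1A and IL6 lay under the band on every array.

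Among the cytokines, TNF was 21.4-fold and IL1B 2.35-fold higher with AZA in MDS-L cells. With AZA in the MDS-L/CDA line TNF was higher by a smaller factor, 4.82-fold, and IL1B stayed close to its vehicle level. TNF encodes tumor necrosis factor, the founding ligand of its family, and its probe lies at chr6:31545837-31545896 on the + strand (hg19). The scaled TNF signal was 0.804 with vehicle and 17.2 with AZA in the MDS-L line, against 0.66 with vehicle and 3.18 with AZA in the MDS-L/CDA line. Both AZA arrays lay above both vehicle arrays, and the MDS-L AZA array stood highest. In MDS-L cells the ratio of AZA to vehicle was 21.4 (log2 4.42), 15.8 times the SD between single spots. This was the 13th highest of 15104 genes well above background on both arrays. In MDS-L/CDA cells the ratio was 4.82 (log2 2.27), 6.03 times the spot SD, and the 12th highest of 14137 genes. With normexp background correction the ratios were 9.52 and 2.16 in that order, still called. The 2 vehicle signals were dim, 42.25 and 26.91 before scaling, with scanner errors of 11.4% and 14.1%. In a bulk RNA sample a larger share of cells that express a gene and more RNA per cell cannot be told apart.

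IL1B encodes interleukin-1β, which is made as a precursor and cut by caspase-1, and its probe lies at chr2:113587429-113587488 on the - strand (hg19). Its scaled signal was 23.6 with vehicle and 55.4 with AZA in the MDS-L line, against 16.3 and 17.4 in the MDS-L/CDA line. The MDS-L AZA array stood above the other 3, and the MDS-L/CDA arrays lay close together. The ratio of AZA to vehicle was 2.35 (log2 1.23, 4.41 times the spot SD) for MDS-L and 1.07 (log2 0.09, 0.252 times the spot SD) for MDS-L/CDA cells.

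A gene was called by the rule of the study's methods, a ratio of at least 2 with a Z score of at least 2, where the Z score is the log2 ratio divided by the spread (SD) that probes of like brightness showed. In MDS-L cells TNF (Z 6.41) and IL1B (Z 2.46) were called higher with AZA, 2 of the 8 genes measured, beside 2.62% of all 17172 genes measured, and 0 of the 8 were called lower, beside 2.43%. In MDS-L/CDA cells only TNF (Z 3.88) was called higher, 1 of 8 beside 1.62% of 15393 genes, and 0 were called lower, beside 2.38%. With the ratio alone NFKB2 was added in MDS-L/CDA cells (2 of 8 beside 2.53%), and in MDS-L cells the count was still 2 of 8, beside 6.73%. By the ratio alone 0 of 8 were lower in either line, beside 6.03% of all genes in MDS-L and 3.07% in MDS-L/CDA cells. Their median log2 ratio was 0.44 in MDS-L cells, beside -0.13 over all genes, and 0.26 in MDS-L/CDA cells, beside 0.02. With scaling to the array median, TNF alone was called higher in MDS-L cells and NFKBIA lower, and the median of the 8 genes was -0.10 there. The array median is a signal below background.

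The inhibitors of NF-κB showed smaller ratios, and none was called in either line. NFKBIA encodes IκBα, which binds NF-κB dimers in the cytoplasm, and is the 1 gene here printed as 10 spots per array, at chr14:35870788-35870847 on the - strand (hg19). Its scaled signal, as the mean of log2 over the spots, in the MDS-L line was 40.5 with vehicle (spots 34.8 to 48.0) and 27.9 with AZA (19.8 to 37.5), against 41.8 (28.8 to 58.2) and 46.5 (30.0 to 66.8) in the MDS-L/CDA line. The spot ranges of MDS-L vehicle and MDS-L AZA overlapped, and those of the MDS-L/CDA arrays were the widest. The ratio of AZA to vehicle was 0.689 in MDS-L cells (log2 -0.54), against 1.11 in MDS-L/CDA cells (log2 0.15). On the log2 scale the SD over the 10 spots was 0.13 and 0.29 on the MDS-L vehicle and AZA arrays and 0.41 and 0.35 on the MDS-L/CDA vehicle and AZA arrays.

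**Figure D2:**
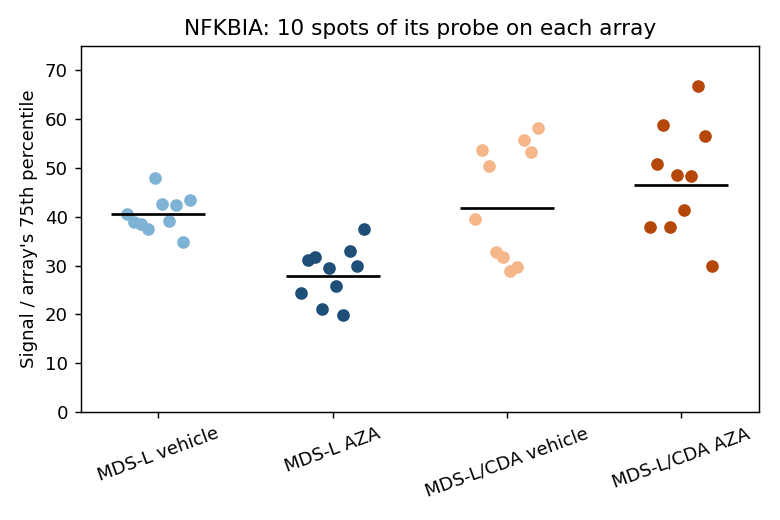
NFKBIA signal of each of the 10 spots on the 4 arrays, as multiples of the 75th percentile of each array, with the mean of log2 as a line. Spots are repeats within 1 array, not cultures. The MDS-L AZA spots run from 19.8 to 37.5 and overlap with the spots of each other array.

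NFKBIE, which encodes IκBε, had scaled signals of 34.6 with vehicle and 26.9 with AZA in the MDS-L line, against 30.0 and 31.0 in the MDS-L/CDA line. The lowest of the 4 was MDS-L AZA, with a ratio to vehicle of 0.779 (log2 -0.36), against 1.03 in MDS-L/CDA cells. TNFAIP3 encodes A20, a ubiquitin-editing enzyme that ends signalling from TNF and Toll-like receptors. Its scaled signal moved from 2.24 with vehicle to 3.19 with AZA in the MDS-L line, and from 2.26 to 3.18 in the MDS-L/CDA line. TNFAIP3 thus had nearly the same ratio in both lines, 1.42 (1.83 times the spot SD) for MDS-L and 1.41 (1.31 times the spot SD) for MDS-L/CDA cells. The MDS-L ratio was below 1 (0.978) when arrays were scaled to their medians.

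The 3 NF-κB subunits differed among themselves. NFKB1 encodes p105, the precursor of the p50 subunit, and had scaled signals of 13.8 with vehicle and 8.78 with AZA in the MDS-L line, against 17.7 and 18.2 in the MDS-L/CDA line. The MDS-L AZA array was the lowest, with a ratio of 0.636 (log2 -0.65), 2.34 times the spot SD and not called. In MDS-L/CDA cells the ratio was 1.03. NFKB2 encodes p100, the precursor of p52 and the inhibitor of the non-canonical pathway, and its scaled signals were 0.587 with vehicle and 0.764 with AZA in the MDS-L line, against 0.817 and 1.64 in the MDS-L/CDA line. The MDS-L/CDA AZA array was the brightest, and all 4 signals were dim, 30.85 to 60.93 before scaling. In MDS-L/CDA cells its ratio was 2.00 with a Z score of 1.71, and a ratio of 2.25 would have been needed at that brightness, while the MDS-L ratio was 1.30 and fell below 1 (0.893) with scaling to array medians. RELB encodes the partner of p52, and its scaled signals were 8.08 with vehicle and 11.6 with AZA in the MDS-L line, against 17.8 and 23.1 in the MDS-L/CDA line. Both MDS-L/CDA arrays lay above both MDS-L arrays. The RELB ratios of AZA to vehicle, 1.44 for MDS-L and 1.29 for MDS-L/CDA cells, were not called, and the first was 0.988 with scaling to array medians.

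**Figure D3:**
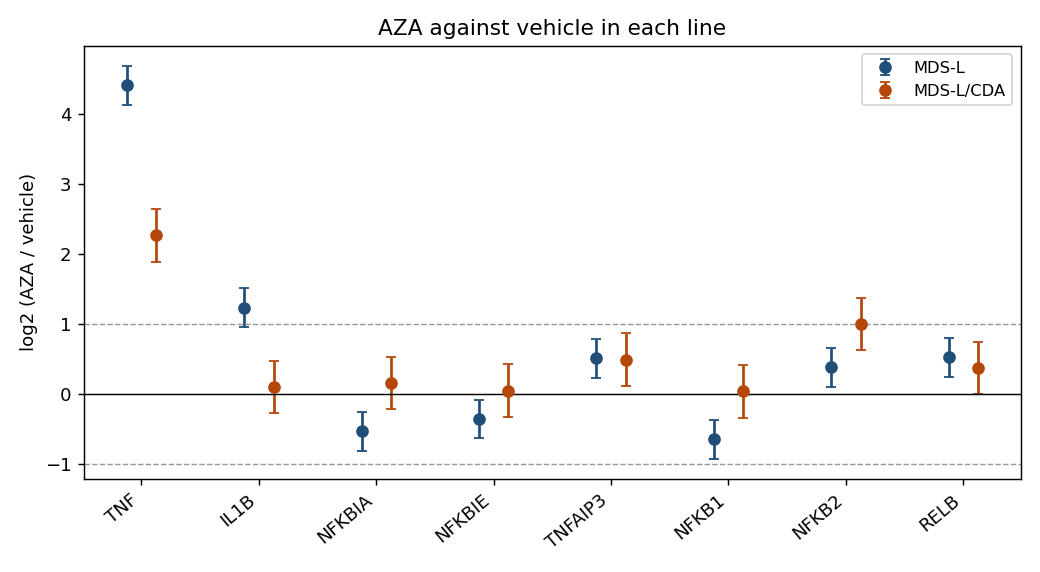
log2 ratio of AZA to vehicle for the 8 measured genes in each line, from 1 array per condition. Bars are ± 1 SD of a log2 ratio between single spots (0.279 for MDS-L and 0.376 for MDS-L/CDA cells), and dashed lines mark a ratio of 2 in either direction. NFKBIA has the same bar, though its value is a mean of 10 spots per array. TNF stands apart in both lines, at 4.42 and 2.27, and IL1B lies above the upper line in MDS-L cells, at 1.23.

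The design also asks whether the AZA ratio differed between the lines. The ratio in MDS-L cells was 4.44 times that in MDS-L/CDA cells for TNF (difference of log2 ratios 2.15) and 2.20 times for IL1B (1.14), where the spot SD of such a difference was 0.468. For TNFAIP3 and RELB the differences were 0.02 and 0.15, under the spot SD, and for NFKBIE it was -0.41, also under it. NFKBIA (-0.69), NFKB1 (-0.69) and NFKB2 (-0.62) had lower ratios in MDS-L than in MDS-L/CDA cells, by 1 to 2 times the spot SD. This SD is for single spots, so it is too wide for NFKBIA, a mean of 10 spots per array. For NFKB2 it is too narrow, since dim probes had a larger SD. None of these differences could be tested, since no condition has a second culture.

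The lines were also set against each other at the same treatment. These comparisons use the same 4 arrays, so they are not independent of the AZA ratios. With vehicle, RELB was 2.21-fold higher in MDS-L/CDA than in MDS-L cells (log2 1.14, Z 2.56, 3.82 times the spot SD). RELB was the 1 of 8 genes called higher, beside 1.04% of 16015 genes, and 0 were called lower, beside 2.04%. The RELB call was lost with no scaling and with normexp, and with scaling to array medians IL1B was called lower in its place. By the ratio alone the counts were the same, 1 of 8 beside 1.97% and 0 of 8 beside 2.64%. TNF and IL1B had ratios of 0.821 and 0.691. With AZA, TNF was 5.41-fold lower (log2 -2.44, Z -3.76) and IL1B 3.18-fold lower (log2 -1.67, Z -3.46) in MDS-L/CDA cells, 2 of 8 called lower beside 2.29% of 16739 genes. NFKB1 was 2.07-fold higher (log2 1.05, Z 2.17), 1 of 8 called higher beside 2.12%, and this call was lost with no scaling, quantile normalization, normexp, spike-in scaling and the authors' value table. NFKB2 had a ratio of 2.14 (Z 1.26) and RELB 1.99, neither called. By the ratio alone 2 of 8 were higher, beside 5.43%, and 2 of 8 lower, beside 5.23%. With AZA these 3 subunits thus had ratios between 1.99 and 2.14 while both cytokines were lower. Their median log2 ratio was 1.05, beside 0.165 over all genes. Over the other normalizations the ratios fell as low as 1.45 for NFKB1, 1.38 for NFKB2 and 1.40 for RELB. The subunit genes REL and RELA had ratios of 1.64 and 1.19 with AZA, neither called.

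**Figure D4:**
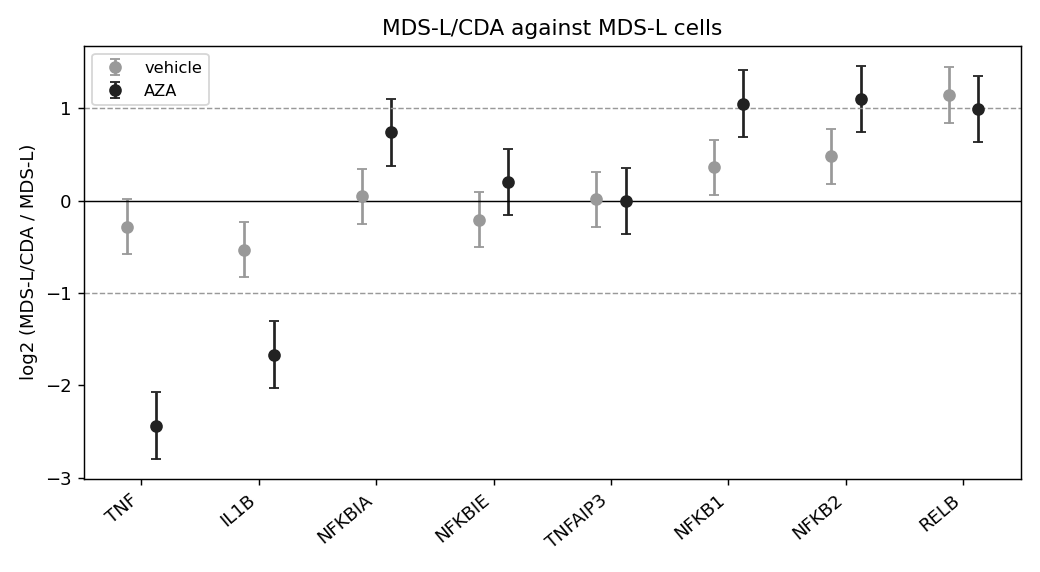
log2 ratio of MDS-L/CDA to MDS-L cells for the 8 measured genes, with vehicle and with AZA, from 1 array per condition. Bars are ± 1 SD of a log2 ratio between single spots (0.299 with vehicle and 0.361 with AZA), and dashed lines mark a ratio of 2 in either direction. NFKBIA has the same bar, though its value is a mean of 10 spots per array. With AZA the 2 cytokines lie below the lower line, at -2.44 and -1.67, and RELB lies near or above the upper line at both treatments.

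The other genes of the pathway were taken as 75 genes in 5 lists. In MDS-L cells 57 were measured, 4 were called higher with AZA (7.02%, beside 2.62% of all genes) and 0 lower (beside 2.43%). In MDS-L/CDA cells 57 were measured, 5 were called higher (8.77%, beside 1.62%) and 1 lower (1.75%, beside 2.38%). Of 14 NF-κB target genes measured in each line, CXCL3, IER3 and TNFAIP2 were called higher in both lines and CXCL2 in MDS-L/CDA cells. CXCL3, a neutrophil-attracting chemokine, was 4.48-fold higher in the MDS-L line and 2.47-fold in the MDS-L/CDA line. IER3, an immediate early gene, was 4.31-fold and 2.77-fold higher, and TNFAIP2, first described as a TNF-induced transcript, 3.30-fold and 2.01-fold higher. CXCL2, a chemokine related to CXCL3, had a ratio of 2.02 in MDS-L cells (Z 1.47, not called), against 2.09 in MDS-L/CDA cells. Its other, dimmer probe was called higher in both lines, at 4.07-fold and 2.92-fold. The median log2 ratio of the target genes was 0.01 in the MDS-L line and 0.47 in the MDS-L/CDA line, where the medians of all genes were -0.13 and 0.02. The 14 measured differ by 1 gene, since CXCL8 was measured in the MDS-L line alone and LTA in the MDS-L/CDA line alone, so these medians are not over 1 set. PTGS2, the inducible cyclooxygenase, was at least 2.88-fold higher in MDS-L/CDA cells, not called, and had a ratio of 1.03 in MDS-L cells. CXCL8 was well above background on the MDS-L AZA array and on no other, at least 1.48-fold above vehicle.

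Of the receptors and antagonists 7 of 12 were measured. IL1RN, the antagonist that blocks the interleukin-1 receptor, was 5.85-fold higher with AZA in the MDS-L line and 2.51-fold in the MDS-L/CDA line, both called, while a dimmer IL1RN probe gave 1.40-fold in MDS-L cells and was below background on both MDS-L/CDA arrays. TNFRSF1A, the main TNF receptor, had a ratio of 0.393 in MDS-L cells (Z -1.95, not called), against 0.472 in MDS-L/CDA cells (Z -2.22, called lower). TNFRSF1B, the other TNF receptor, had ratios of 0.491 and 0.793, neither called. CASP1, which cuts interleukin-1β to its active form, had ratios of 0.416 and 0.756 in that order, neither called. Of 20 measured adaptors and kinases 0 were called in either line. The lowest was MAP3K7, the kinase TAK1, with a ratio of 0.472 in MDS-L/CDA cells (Z -1.85). Of 10 other measured subunits and inhibitors 0 were called, and CYLD, a deubiquitinase that limits NF-κB, had a ratio of 2.04 in MDS-L cells (Z 1.13).

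**Figure D5:**
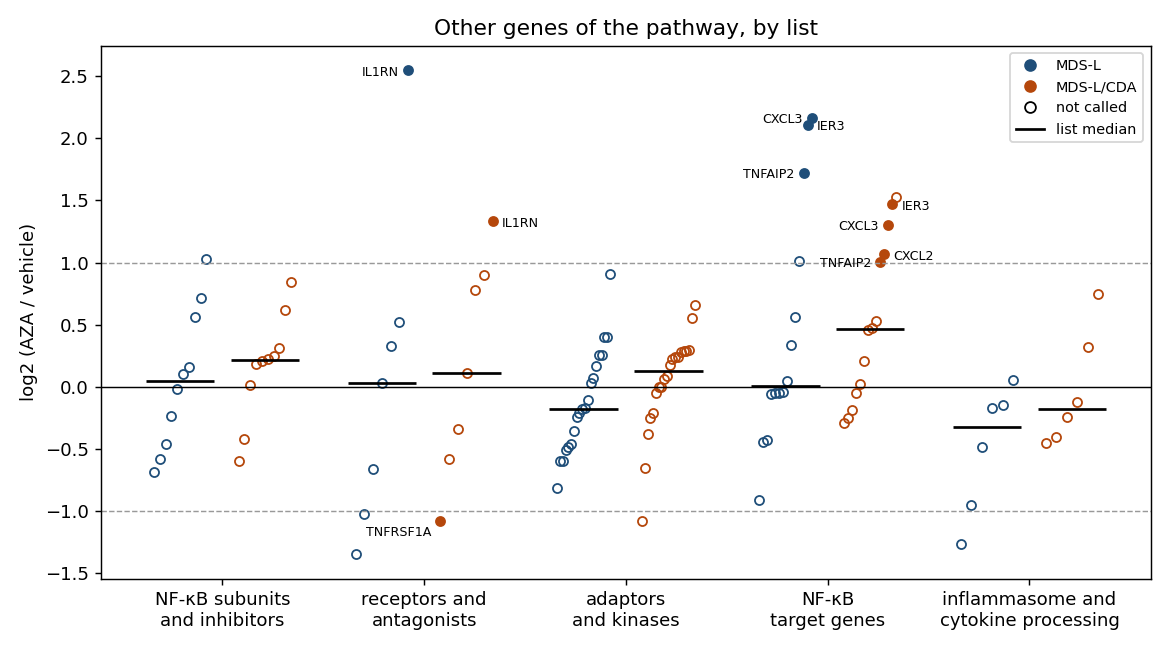
log2 ratio of AZA to vehicle for the measured genes of the 5 lists in each line, 1 point per gene, with the list median as a line. Filled, named points passed the call, and a gene not well above background on the dimmer array is drawn at its bound. Called genes lie among the target genes and the receptors and antagonists, and IL1RN is highest in MDS-L cells at 2.55.

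Between the lines, BIRC3, a ubiquitin ligase of the TNF receptor complex, was the 1 of 56 measured pathway genes called higher with vehicle (1.79%, beside 1.04% of all genes), at 3.20-fold in MDS-L/CDA cells, and 0 were called lower (beside 2.04%). With AZA 2 of 57 were called higher (3.51%, beside 2.12%) and 1 lower (1.75%, beside 2.29%). BIRC3 was 3.46-fold higher with AZA. LTB, which encodes lymphotoxin β, was 2.55-fold higher in MDS-L/CDA cells and TNFAIP2 had a ratio of 0.439, both called. For genes called by ratio and Z score, these shares lie close to those of all genes. By the ratio alone 7 of 57 were higher with AZA, beside 5.43% of all genes, and 2 lower, beside 5.23%. Besides the called genes, these were MAP3K14 (2.29), the kinase NIK of the non-canonical pathway, GSDMD (2.27), TNFRSF1B (2.17) and PTGS2 (3.15), all higher. LTA was at least 2.19-fold higher, and IER3 (0.477) was lower.

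Markers of other cell types were read on the same arrays. Of the mast cell and basophil markers TPSAB1, CPA3, MS4A2, HDC and FCER1A, all 5 were called higher with AZA in the MDS-L line and 3 of 5 in the MDS-L/CDA line. The scaled signals of the 5 markers summed to 37.4 with vehicle and 239 with AZA in the MDS-L line. In the MDS-L/CDA line the sums were 15.5 and 68.6. These sums had the same order of arrays as TNF, and HDC made up 137 of the MDS-L AZA sum. MS4A2 did not follow this order, at 0.412 with AZA in the MDS-L/CDA line and 1.27 with vehicle in the MDS-L line. Of 8 monocyte and macrophage markers 6 were on the array, and they were dim. On the MDS-L vehicle, MDS-L AZA, MDS-L/CDA vehicle and MDS-L/CDA AZA arrays 1, 3, 0 and 3 of 6 were well above background. Their summed scaled signal was 0.785, 1.70, 0.496 and 1.56 in that order. These sums had the order of TNF as well. The progenitor sums below differed from it only in the order of the vehicle arrays. There TNF itself had a ratio of MDS-L/CDA to MDS-L of 0.821, 0.95 times the spot SD. The lymphocyte sums did not have the order of TNF. CD163 and FCGR3A were not well above background on any array. For the lymphocyte markers the sums were 15.0, 18.6, 16.9 and 16.8, and CD3D and CD2 were called higher with AZA in the MDS-L line, with CD3E and MS4A1 not well above background on any array, and 0 of 5 stromal markers were well above background on any array. For the progenitor markers the sums were 87.4, 138, 93.0 and 121, and 2 of 5 measured were called higher with AZA in each line. These were KIT, the stem cell factor receptor, 47.3-fold higher in the MDS-L line and 3.58-fold in the MDS-L/CDA line, and GATA2, a transcription factor of progenitors and mast cells, 2.46-fold and 2.01-fold higher. The part of these markers and cell types in the TNF and IL1B ratios was not tested.

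The probes whose pattern was most like that of each gene were sought among 15251 probes well above background on all 4 arrays, by the root mean square difference of mean-centred log2 signals over the 4 arrays. Nearest to TNF were a probe of HIST1H2AC (0.246), a histone gene, KCNK5 (0.412), a potassium channel, and HDC (0.468), the enzyme that makes histamine and one of the mast cell markers above. Another HIST1H2AC probe was among the 3 nearest to NFKB1 (0.0224), so the probes of that gene disagreed. Nearest to IL1B were C6orf132 (0.0173), SERPINH1 (0.0273), a collagen chaperone, and PECAM1 (0.0429), an adhesion molecule of endothelial and blood cells. The TNF neighbours were farther away than those of IL1B. For the other 6 genes the nearest probe lay at a distance of 0.00546 (ZFP69 for NFKBIE) to 0.0315 (ANKRD20A2 for NFKB2). Over 4 arrays such likeness is a description of these arrays.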

How the data were processed

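The 4 conditions (each line with vehicle or AZA) were measured on 4 one-colour arrays of 1 slide. The deposited scanner files, made by the authors with Agilent Feature Extraction 10.7.1.1, hold an intensity per spot on a linear scale after background subtraction, with no normalization between arrays. The authors also deposited a table of normalized intensity, used as an alternative. Its normalization is not described in the methods. Gene names and hg19 probe positions are those of the array design.

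Control spots and flagged outlier spots were dropped, which left 16 probes with no usable spot on at least 1 array. From the deposited intensity, log2 signals were averaged over spots and set relative to the 75th percentile of their array (Python 3.11.15, pandas 2.3.3; limma 3.58.1 for normexp). The methods give no formula for the Z score, so the SD was taken in 10 equal bins of mean log2 signal. Where the scanner did not flag a signal as well above background, the larger of that signal and the lowest flagged one on its array took its place, which gives a bound. A gene was represented by its brightest probe. The calling steps were run on simulated data with large changes planted in brighter probes. Changes near a ratio of 2 were not simulated, so the run does not speak to calls of that size.

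The genes, the lists and the tests were chosen with earlier results of these data known. Named genes are the 10 genes, list genes with a ratio or bound of at least 2 in any comparison, at most 12 a comparison, and the 3 nearest probes to each gene. CXCL8, REL, RELA, CDA and the other probes of CXCL2, IL1RN and KIT, together with the cell markers, are named in addition. Single values of some markers are not reported here. The lists were NF-κB subunits and inhibitors, receptors and antagonists, adaptors and kinases, NF-κB target genes, inflammasome and cytokine processing, and markers of progenitors, monocytes and macrophages, mast cells and basophils, lymphocytes and stroma. Nearest probes were computed for 8 genes and are given in full for the cytokines.

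Alternatives were no scaling, median scaling, quantile normalization, normexp with an offset of 50, the authors' table, other Z scores, a ratio of 1.5, the ratio alone, and both arrays well above background. Scaling to spike-in probes was added after seeing the data. The precision is limited by the number of arrays. For AZA, the titles state the dose in mM and the other fields in μM, and the latter was used.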

Additional observations from a re-analysis of the deposited data

Results flagged for a closer look

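NFKBIA, NFKBIE and NFKB1 had AZA ratios below 1 in MDS-L cells and above 1 in MDS-L/CDA cells, which marked them as differing between the lines. The log2 ratio in MDS-L minus that in MDS-L/CDA cells was -0.6924 for NFKBIA, -0.4074 for NFKBIE and -0.6895 for NFKB1. The difference was not tested, since each condition has 1 array. Of 13962 genes well above background on all 4 arrays, 38.5% had opposite signs in the 2 lines. The positive sign in MDS-L/CDA cells held under all 6 other scalings for NFKBIA and under 3 of 6 for NFKBIE and NFKB1.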

How the results depend on the processing

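Over 6 other normalizations TNF stayed called higher with AZA in both lines, with a ratio of 9.52 to 23.8 in MDS-L and 2.16 to 4.86 in MDS-L/CDA cells. The IL1B ratio in MDS-L cells was 1.61 to 2.77, and its call was lost with median scaling alone. TNF and IL1B stayed called lower in MDS-L/CDA cells with AZA under all 6. With the ratio alone 2 genes were called in MDS-L/CDA cells, TNF and NFKB2. With no scaling and with normexp the RELB call between vehicle arrays was lost, leaving 0 calls, and with median scaling it was replaced by IL1B, called lower. Median scaling moved the median log2 ratio of the 8 genes to -0.10 (-0.0971) for AZA in MDS-L cells and to -0.49 (-0.493) between vehicle arrays. No scaling moved it to -0.34 (-0.3363) between vehicle arrays and to -0.04 (-0.0369) between AZA arrays. Median scaling also moved the median of all genes, by -0.54 for AZA in MDS-L cells and by -0.50 between vehicle arrays, and no scaling moved it by -0.35 and -0.48 between vehicle arrays and between AZA arrays. Of 192 other values for single genes, 153 moved by less than the spot SD and 39 by more, and no called value changed sign. No paired analysis was possible because each condition has 1 array. Signals near background limit the vehicle values of TNF and all values of NFKB2.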
